A study of Arabidopsis thaliana with 27 samples.

Results

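The expansin superfamily of Arabidopsis was followed through the count table as a list of 34 genes, chosen by family name and gene identifier out of 32833 genes. The list held 25 α-expansins (EXPA), 5 β-expansins (EXPB), 3 members of the EXLA group and 1 member of the EXLB group. RNA was taken from Col-0 seedlings aged 3 days as cotyledons, roots or whole seedlings, and each organ had 3 libraries for each of 3 treatments, 27 libraries in all. The treatments were NAE 18:2 at 40 µM, NAE 18:3 at 70 µM and the solvent control, 0.2% DMSO, and the labels give a treatment of 1 h. The study's methods give a longer range for that time, and the series design text gives 80 µM for NAE 18:3. No transgene or mutant was involved, and seedlings were treated in groups in petri dishes, so each library pools many plants. The study's methods call the libraries of a group biological replicates, and neither they nor the labels say whether these were separate cultures, so the p-values measure the spread between these libraries.

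NAEs (N-acylethanolamines) are fatty acid amides of seeds and seedlings. NAE 18:2 carries linoleic acid and NAE 18:3 carries linolenic acid, which has a further double bond. Expansins are secreted proteins that loosen plant cell walls without cutting the polymers, and they act best in an acidic wall, so wall acidification by plasma membrane proton pumps goes together with expansin action in growing cells. The α and β groups are the expansins with shown wall-loosening activity, and the activity of the EXLA and EXLB proteins is less known. Individual members are used in different tissues, among them root hairs, lateral root sites, guard cells, leaves and germinating seeds.

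EXPA7 and EXPA18 are the root hair expansins of Arabidopsis, and the largest differences in NAE 18:3 roots lay in them, so their upstream sequences are shown. Both genes lie on the plus strand of chromosome 1, EXPA7 (AT1G12560) at chr1:4276505-4277969 and EXPA18 (AT1G62980) at chr1:23331563-23333246 in the RefSeq annotation of build TAIR10.1. The printed runs are the 250 bases before each annotated start, chr1:4276255-4276504 for EXPA7 and chr1:23331313-23331562 for EXPA18, and the capitals mark a match to the root hair element, a short promoter element known from root hair genes.
EXPA7: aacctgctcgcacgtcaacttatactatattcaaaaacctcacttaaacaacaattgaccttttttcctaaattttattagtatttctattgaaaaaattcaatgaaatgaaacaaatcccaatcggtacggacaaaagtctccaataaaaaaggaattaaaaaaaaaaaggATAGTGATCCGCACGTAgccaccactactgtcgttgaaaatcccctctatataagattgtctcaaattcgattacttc
EXPA18: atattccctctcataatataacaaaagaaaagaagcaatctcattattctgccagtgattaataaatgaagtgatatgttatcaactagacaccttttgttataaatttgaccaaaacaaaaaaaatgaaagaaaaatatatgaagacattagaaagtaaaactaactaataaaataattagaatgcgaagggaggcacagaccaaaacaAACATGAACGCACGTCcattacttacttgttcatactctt
Counting the start base as 1, the match lay at positions -78 to -62 in EXPA7 and at -40 to -25 in EXPA18, and EXPA18 held another match at positions 6 to 22 (ATAGTGTTTCTCACGTT). In windows of 300 bases (250 before the start and 50 from it on), searched on both strands, the element was found in 2 of the 34 members and in 238 of 27443 genes (0.867%). The letters ACGTG, which lie on the other strand inside all 3 of these matches, were found in 8 members and in 26.7% of all windows, and CGTGCG, which overlaps the upstream matches of both genes, in 3 members and 1.96%. Of the other letters searched, TGTCTC was found in 5 members (14.2% of all windows), CGTGTG in 4 (6.52%), TGTCGG in 2 (5.12%) and CACGTG, which contains ACGTG, in 1 (7.68%). A match describes the sequence and was not tested as a binding site. Since the element is known from root hair genes, its match in the 2 root hair expansins adds no independent support.

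Total counts ran between 17781269 and 38635934 per library (median 26436942). Levels are given as CPM, each count scaled to its library's total after TMM scaling over all 27 libraries, for replicates 1, 2 and 3 in that order. A call means an adjusted p under 0.01 and a log2 fold change beyond 1 in either direction, the thresholds of the study, in the quasi-likelihood test of edgeR, whose p-values were adjusted by Benjamini and Hochberg's method across every gene tested in the organ. The filter on low counts left 19444 genes and 19 members in cotyledons, 20138 and 21 in roots, and 20911 and 23 in whole seedlings. The fit of all 27 libraries held 21643 genes and 24 members. Green shoot markers (8 genes) were lower in DMSO roots than in DMSO cotyledons in 8 of 8, and root markers (8 genes) were higher in 8 of 8, as the organ labels have it.

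Of the 34 members, 8 had no count in any library (EXPA22 to EXPA26, EXPB2, EXPB4 and EXPB5), which allows up to 3 counts in each, and EXPA21 never passed 3 counts. EXPA21 to EXPA26 lie side by side on chromosome 5. EXPA22 and EXPA26 are 97.1% identical over 937 aligned bases, and EXPA23 and EXPA25 are 96.8% identical over 901, so their reads could be lost to multiple mapping, which was not tested. EXPA2, known from seed germination, reached at most 9 counts and entered no test. EXPA20 is overlapped over 87.1% of its length by a gene on the opposite strand, so its low values are uncertain, since the use of strand in counting is not given in the sources used here. Of the members with called values, EXPA7, EXPA18 and EXLA1 overlap a neighbour on the opposite strand by 46 bases or less.

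In untreated organs the family was divided between root and cotyledon members. DMSO roots against DMSO cotyledons gave 10 members called higher of 24 tested (41.7%, against 20.0% of all genes) and 7 called lower (29.2%, against 22.4%). Some of these members entered the test through the organ in which they are high, so the counts describe the list. The median log2 fold change was 0.60 over the members tested and 0.01 over all genes. In bulk organs, fewer cells of a type and less RNA per cell cannot be told apart.

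EXPA17, a lateral root expansin, had 60.2, 38.0 and 118 CPM in DMSO roots, against 0, 0.0470 and 0.124 CPM in DMSO cotyledons. EXPA7 had 29.6, 11.8 and 39.9 CPM and EXPA18 28.6, 10.8 and 25.8 CPM in DMSO roots, and no DMSO cotyledon library of either passed 3 counts. Measured against a floor of 3 counts per cotyledon library, these genes were at least 560-fold (EXPA17), 211-fold (EXPA7), 169-fold (EXPA18) and, for EXPA12, 25.8-fold higher in roots. EXPA14, which like EXPA17 is known from lateral root emergence, was 103-fold higher (log2 fold change 6.68 ± 0.68, SE, adjusted p = 1.95e-08), EXLB1 59.3-fold and EXPA9 21.1-fold. EXLA3, EXPA11 and EXPA15 were 11.7-fold, 7.40-fold and 4.54-fold higher in roots.

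The members lower in roots were led by EXPA16 and EXPA5. EXPA16 had no more than 3 counts in any DMSO root library, against 8.65, 6.77 and 4.35 CPM in DMSO cotyledons, at least 67.9-fold lower in roots. EXPA5, a brassinosteroid-responsive expansin, had 0.173, 0.0302 and 0.0760 CPM in DMSO roots, against 38.2, 33.3 and 20.8 CPM in DMSO cotyledons (log2 fold change -8.26 ± 0.70, SE, adjusted p = 1.02e-09). EXPA10, tied to leaf growth and pedicel abscission, was 30.8-fold lower in roots, EXLA2 21.7-fold, EXPA3 20.1-fold, EXPA6 18.5-fold and EXLA1 2.86-fold. All 17 of these calls were kept when any 1 of the 6 DMSO libraries was left out, and under upper quartile scaling that of EXLA1 was lost (adjusted p = 0.0107). The 7 members not called had log2 fold changes between -1.13 and 1.55. Those of EXPA1, EXPA13, EXPB1 and EXPB3 lay between -0.32 and 0.44. EXPA4, also among the 7, was called higher in roots under upper quartile scaling.

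**Figure D1:**
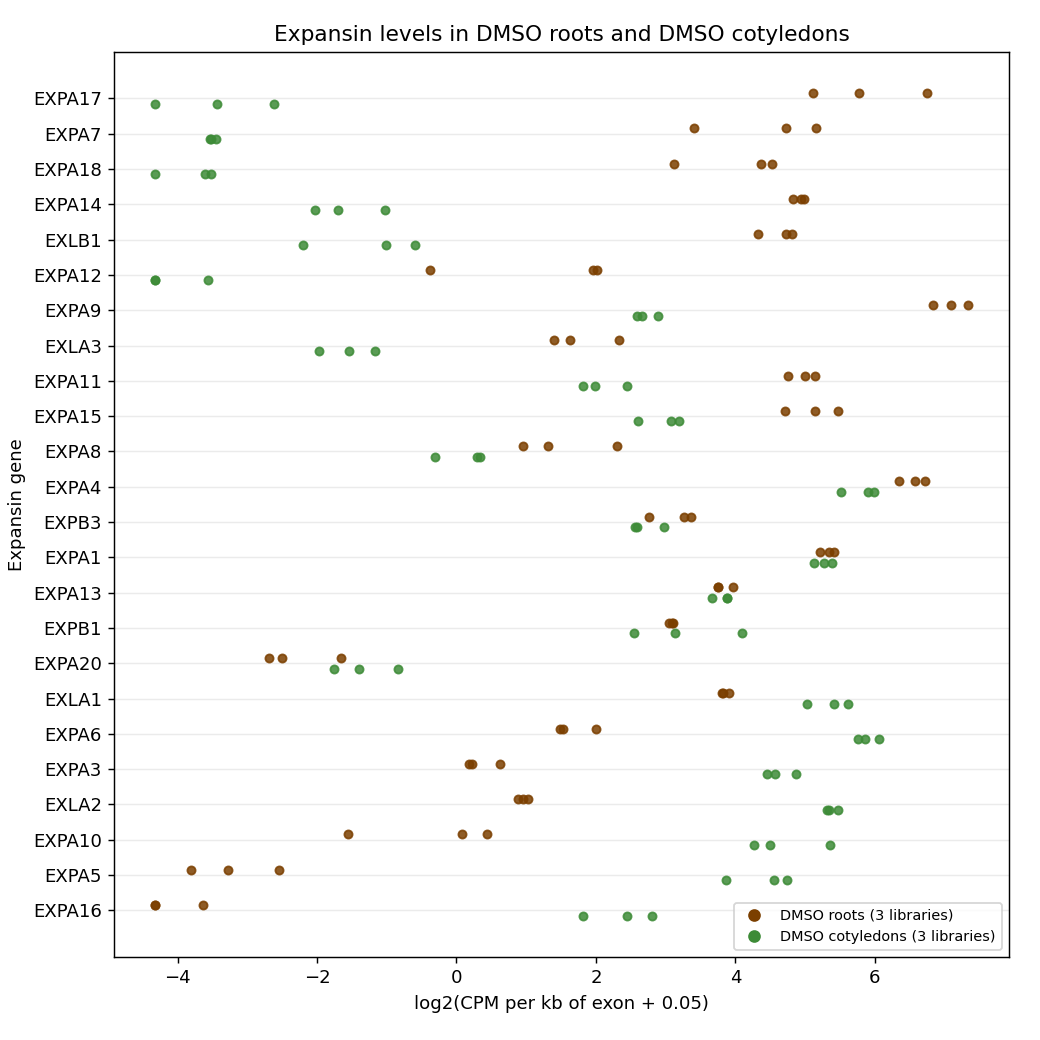
Level of the 24 tested expansins in DMSO roots and DMSO cotyledons, as log2 of CPM per kb of exon plus 0.05. The 3 root libraries form the upper point row of each gene and the 3 cotyledon libraries the lower. Genes are ordered by the root mean divided by the cotyledon mean plus 0.05. EXPA17, EXPA7, EXPA18, EXPA14 and EXLB1 stand at the root end, EXPA16 and EXPA5 at the cotyledon end, and EXPA1 and EXPA13 have overlapping libraries.

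Levels of different members were compared per kb of exon. In DMSO roots EXPA9 was the most abundant (137 ± 23.9 CPM per kb, SD, n = 3) and held 24.2% of all expansin CPM, followed by EXPA4 (94.1 ± 12.1) and EXPA17 (65.7 ± 37.7), whose spread over libraries takes in the level of EXPA4. In DMSO cotyledons EXPA6 (59.5 ± 6.39 CPM per kb) and EXPA4 (56.2 ± 9.38) did not differ beyond their spread, and EXLA2 (41.5 ± 2.42) and EXLA1 (41.4 ± 8.39) came next. In DMSO seedlings EXPA4 led (96.6 ± 11.1 CPM per kb), ahead of EXPA1 (50.6 ± 3.88) and EXPA9 (38.9 ± 4.13).

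In roots treated with NAE 18:3, 12 of the 21 expansins tested were called lower and none higher (57.1% lower, against 16.8% of all genes tested called lower and 5.94% called higher). At an unadjusted p under 0.05 there were 16 of 21 members, against 63.0% of all genes, and DESeq2 called 13 lower and 1 higher (16.8% lower and 6.29% higher among all genes to which it gave an adjusted p, the base of each DESeq2 share). The median log2 fold change was -1.65 over the members tested and 0.00 over all genes. In each of the 12 called members all 3 NAE 18:3 libraries lay below all 3 DMSO libraries. The members were picked by the call, which makes such a gap likely. The share of all genes with this gap was not counted for roots. NAE 18:2 at its lower dose is given beside it, and both comparisons share the DMSO libraries. In NAE 18:2 roots 2 members were called lower and none higher (9.52% lower, against 3.03% of all genes called lower and 5.68% called higher), 12 of 21 had an unadjusted p under 0.05, against 45.4% of all genes, and DESeq2 called 7 lower (4.30% of all genes) and 0 higher.

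Under NAE 18:3 the root hair members EXPA7 and EXPA18 and the lateral root member EXPA17 had the largest differences. EXPA7 had 3.93, 13.7 and 4.48 CPM in NAE 18:2 roots and 0.261, 0.713 and 0.297 CPM in NAE 18:3 roots, against 29.6, 11.8 and 39.9 CPM in DMSO roots. It fell 69.5-fold under NAE 18:3 (log2 fold change -6.12 ± 0.78, SE, adjusted p = 0.000256), and under NAE 18:2 its highest library lay above the lowest DMSO library (-1.92 ± 0.58, adjusted p = 0.0328, not called). EXPA18 had 2.47, 8.25 and 3.18 CPM in NAE 18:2 roots and 0.820, 0.238 and 0.297 CPM in NAE 18:3 roots, against 28.6, 10.8 and 25.8 CPM in DMSO roots. All libraries of both NAEs lay below the DMSO libraries, with a 53.7-fold fall under NAE 18:3 (-5.75 ± 0.70, adjusted p = 0.000216) and -2.27 ± 0.55 under NAE 18:2 (adjusted p = 0.0140, not called). The transcripts of EXPA7 and EXPA18 are 75.8% identical over 682 aligned bases, below the 95% at which genes were treated as near copies.

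EXPA17 had 11.5, 30.8 and 10.5 CPM in NAE 18:2 roots and 2.65, 2.41 and 1.14 CPM in NAE 18:3 roots, against 60.2, 38.0 and 118 CPM in DMSO roots. Its libraries did not overlap between either NAE and DMSO, and it fell 38.9-fold under NAE 18:3 (log2 fold change -5.28 ± 0.65, SE, adjusted p = 0.000220), with -2.08 ± 0.54 under NAE 18:2 (adjusted p = 0.0185, not called). EXPA14 had 8.10, 20.5 and 7.67 CPM in NAE 18:2 roots and 4.14, 2.11 and 5.14 CPM in NAE 18:3 roots, against 52.1, 54.0 and 48.4 CPM in DMSO roots. Every treated library lay far below the narrow DMSO range. EXPA14 was called lower under both NAEs, 4.40-fold under NAE 18:2 (-2.14 ± 0.41, adjusted p = 0.00550) and 15.7-fold under NAE 18:3 (-3.97 ± 0.46, adjusted p = 0.000159).

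EXPA8 was the other member called lower under both NAEs. It had 0.417, 1.10 and 0.506 CPM in NAE 18:2 roots and 0.0745, 0.272 and 0.0494 CPM in NAE 18:3 roots, against 2.51, 3.23 and 6.46 CPM in DMSO roots, which is 1 to 8 counts in the NAE 18:3 libraries. The fall was 6.22-fold under NAE 18:2 (log2 fold change -2.64 ± 0.56, SE, adjusted p = 0.00752) and 31.9-fold under NAE 18:3 (-4.99 ± 0.67, adjusted p = 0.000317). Under NAE 18:2 the calls of EXPA8 and EXPA14 were each lost in 5 of the 6 fits that left out 1 library, with adjusted p up to 0.0363 for EXPA8 and 0.0247 for EXPA14. NAE 18:2 root replicate 2 was the highest of its group for EXPA7, EXPA8, EXPA14, EXPA17 and EXPA18, and without it 6 members were called lower (EXPA7, EXPA8, EXPA14, EXPA17, EXPA18 and EXPB1). Without NAE 18:2 root replicate 1 or DMSO root replicate 3 the count was 1 (EXPA4 and EXPA12), and without DMSO root replicate 1, DMSO root replicate 2 or NAE 18:2 root replicate 3 it was 0. NAE 18:2 root replicate 2 lay nearest DMSO for the 6 members called without it. The further calls follow from that choice and support none of these members. The share of all genes called lower in these fits was not counted.

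Root hair markers moved with these genes. The summed level of 5 markers (COBL9, PRP3, PRP1, LRX1 and RHS18) was 13.6, 48.9 and 17.1 CPM in NAE 18:2 roots and 4.40, 3.43 and 2.77 CPM in NAE 18:3 roots, against 224, 53.8 and 122 CPM in DMSO roots, and no marker was at 0 in a group. Of the 5, 3 were called lower under NAE 18:2 (3.03% of all genes) and 5 under NAE 18:3 (16.8% of all genes). Their median log2 fold change was -5.48 under NAE 18:3. The sum over 8 root markers, a list that shares COBL9 and PRP3 with the root hair list, ran from 413 to 456 CPM in NAE 18:2 roots and from 268 to 308 CPM in NAE 18:3 roots, against 342 to 500 CPM in DMSO roots. Of the 8, 4 were called lower under NAE 18:3 (16.8% of all genes). The part of fewer root hairs or of less RNA per hair cell in the fall of EXPA7 and EXPA18 was not tested.

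**Figure D2:**
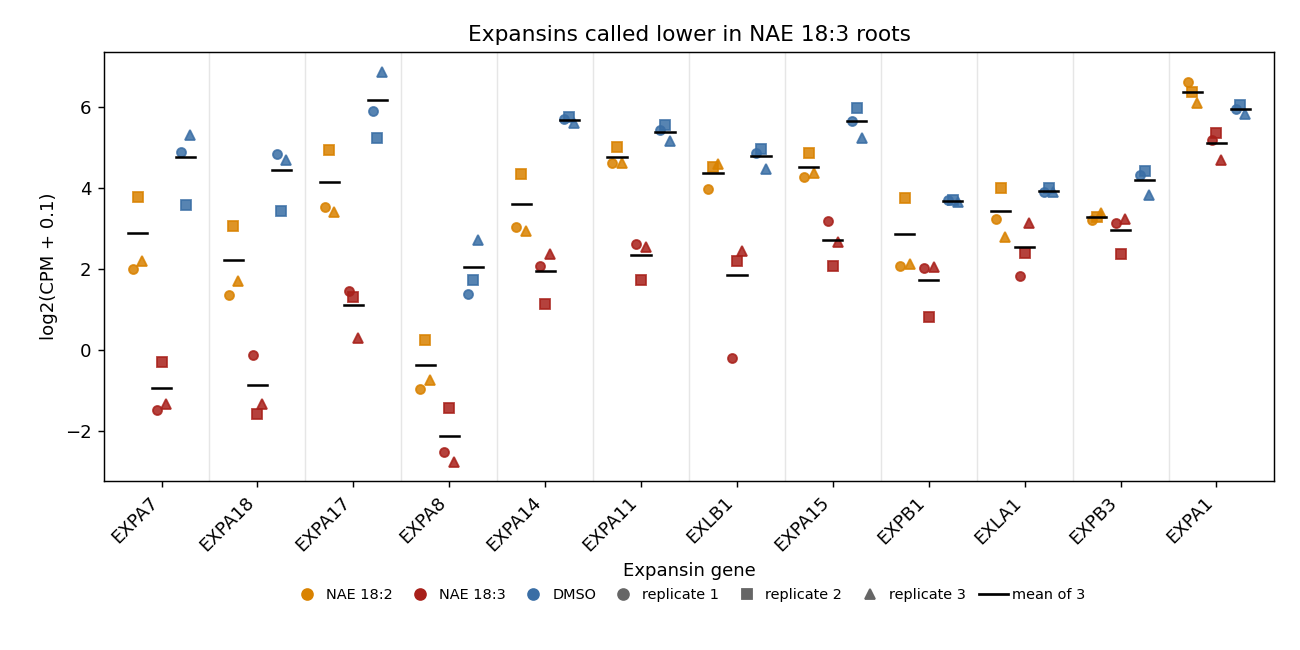
The 12 expansins called lower in NAE 18:3 roots, as log2 of CPM plus 0.1 in NAE 18:2, NAE 18:3 and DMSO roots, with the replicates as marker shapes and bars at the log2 of the mean CPM. All 3 NAE 18:3 libraries lie below the DMSO libraries in every gene shown, and NAE 18:2 replicate 2 is the highest of its group for EXPA7, EXPA8, EXPA14, EXPA17 and EXPA18.

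Further root members fell under NAE 18:3 with smaller or overlapping differences under NAE 18:2. EXPA11 had 24.7, 32.2 and 24.6 CPM in NAE 18:2 roots and 6.11, 3.26 and 5.73 CPM in NAE 18:3 roots, against 43.0, 47.1 and 36.0 CPM in DMSO roots. It fell 9.57-fold under NAE 18:3 (log2 fold change -3.26 ± 0.24, SE, adjusted p = 2.36e-05) and had -0.68 ± 0.22 under NAE 18:2 (adjusted p = 0.0389). EXPA15 had 19.2, 29.0 and 20.6 CPM in NAE 18:2 roots and 9.06, 4.11 and 6.33 CPM in NAE 18:3 roots, against 50.4, 63.4 and 37.6 CPM in DMSO roots. No treated library reached the DMSO range, and the fall under NAE 18:3 was 8.87-fold (-3.15 ± 0.32, adjusted p = 9.21e-05). Under NAE 18:2 EXPA15 had -1.19 ± 0.30 (adjusted p = 0.0157, not called). EXLB1, the only EXLB gene, had 15.7, 22.8 and 24.0 CPM in NAE 18:2 roots and 0.783, 4.52 and 5.39 CPM in NAE 18:3 roots, against 29.4, 31.3 and 22.2 CPM in DMSO roots. Its NAE 18:2 libraries overlapped DMSO (-0.46 ± 0.46, adjusted p = 0.469), and it fell 8.94-fold under NAE 18:3 (-3.16 ± 0.52, adjusted p = 0.000964).

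The β-expansins EXPB1 and EXPB3 belong to the group that also holds the grass pollen allergens. EXPB1 had 4.17, 13.4 and 4.27 CPM in NAE 18:2 roots and 4.03, 1.66 and 4.05 CPM in NAE 18:3 roots, against 13.0, 12.9 and 12.5 CPM in DMSO roots, and EXPB3 had 9.15, 9.65 and 10.4 CPM in NAE 18:2 roots and 8.68, 5.13 and 9.34 CPM in NAE 18:3 roots, against 20.0, 21.3 and 14.1 CPM in DMSO roots. EXPB1 fell 4.54-fold under NAE 18:3 (log2 fold change -2.18 ± 0.51, SE, adjusted p = 0.00573) and EXPB3 fell 2.74-fold (-1.45 ± 0.23, adjusted p = 0.000722). Under NAE 18:2 all libraries of EXPB3 lay below DMSO (-0.98 ± 0.23, adjusted p = 0.0110), and EXPB1 overlapped DMSO (-0.86 ± 0.48, adjusted p = 0.193). Neither was called. EXLA1 had 9.39, 16.1 and 6.83 CPM in NAE 18:2 roots and 3.47, 5.23 and 8.75 CPM in NAE 18:3 roots, against 15.04, 15.9 and 14.9 CPM in DMSO roots, a 3.03-fold fall under NAE 18:3 (-1.60 ± 0.38, adjusted p = 0.00624). EXPA1, a guard cell expansin linked to stomatal opening and abundant in every organ here, had 98.7, 83.2 and 69.4 CPM in NAE 18:2 roots and 36.3, 41.3 and 25.9 CPM in NAE 18:3 roots, against 62.5, 66.2 and 57.2 CPM in DMSO roots. Its NAE 18:3 libraries lay below and its NAE 18:2 libraries above the DMSO range, and only the fall under NAE 18:3 was called (-1.03 ± 0.18, adjusted p = 0.00135), with 0.38 ± 0.18 under NAE 18:2 (adjusted p = 0.134).

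With no filter on low counts EXPA1 (log2 fold change -0.96) and EXPB1 (adjusted p = 0.0115) were not called, nor was EXPA1 with only the 6 libraries compared (-0.99). Of the 12 calls under NAE 18:3, 9 were kept in all 6 fits that left out 1 root library (EXPA7, EXPA8, EXPA11, EXPA14, EXPA15, EXPA17, EXPA18, EXPB3 and EXLB1). EXPB1 was lost in 6 (adjusted p up to 0.0175), EXLA1 in 5 (up to 0.0224), and EXPA1 in 3, without DMSO replicate 1, DMSO replicate 2 or NAE 18:3 replicate 3, where its log2 fold change was between -0.99 and -0.85. The green shoot markers summed to 851 CPM in NAE 18:3 root replicate 3, against 34.3 and 70.0 CPM in the other NAE 18:3 roots and 29.4 to 44.2 CPM in DMSO roots. Without that library 10 members were called lower, EXPA1 and EXPB1 being the ones lost. The share of all genes called lower without it was not counted.

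The 9 members not called under NAE 18:3 in roots had log2 fold changes between -2.10 and 1.06. EXPA9, the most abundant of the family in roots, had 166, 124 and 132 CPM in NAE 18:2 roots and 310, 218 and 267 CPM in NAE 18:3 roots, against 185, 155 and 220 CPM in DMSO roots, with 0.31 ± 0.17 under NAE 18:3 (adjusted p = 0.147). EXPA4 had 116, 65.4 and 61.1 CPM in NAE 18:2 roots and 117, 92.3 and 149 CPM in NAE 18:3 roots, against 122, 143 and 158 CPM in DMSO roots. The ranges of both genes overlapped DMSO under NAE 18:3, and EXPA4 lay below DMSO in all 3 NAE 18:2 libraries (-0.87 ± 0.26, adjusted p = 0.0300). EXLA2, studied for its part in the response to a necrotrophic fungus, had 3.09, 1.97 and 1.41 CPM in NAE 18:2 roots and 4.03, 4.96 and 6.28 CPM in NAE 18:3 roots, against 2.13, 2.02 and 2.24 CPM in DMSO roots. Its NAE 18:3 libraries all lay above DMSO without a call (1.06 ± 0.29, adjusted p = 0.0111), and its value without replicate 3, the library with the most shoot marker signal, was 0.90 (adjusted p = 0.0393). EXPA13 passed the p threshold under both NAEs but not the fold threshold (-0.80 under NAE 18:2, adjusted p = 0.00509, and -0.75 under NAE 18:3, adjusted p = 0.00279). EXPA12 had -3.39 ± 0.76 under NAE 18:2 (adjusted p = 0.0104) and was not called. Its libraries held 4, 7 and 16 counts in NAE 18:2 roots, against 155, 154 and 22 in DMSO roots.

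Summed over the family, expansin CPM was 472 ± 61.3 in NAE 18:2 roots, 493 ± 66.9 in NAE 18:3 roots and 773 ± 64.3 in DMSO roots (SD, n = 3 each). The difference from DMSO was larger than the spread of the libraries under either NAE and was not tested as a sum. EXPA9 and EXPA4, neither of them called, made up 24.2% and 18.3% of the DMSO root sum.

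In cotyledons fewer members were called, and of these EXLA1 was also called in roots. In NAE 18:3 cotyledons 3 of the 19 expansins tested were called lower and none higher (15.8% lower, against 2.49% of all genes called lower and 6.33% called higher), 9 of 19 had an unadjusted p under 0.05, against 40.4% of all genes, and DESeq2 called 4 lower (EXPA11 being the further one, 2.62% of all genes) and 0 higher. The median log2 fold change was -0.35 over the members tested and -0.02 over all genes. In NAE 18:2 cotyledons 0 members were called (0.617% of all genes were called higher and 0.108% lower), while 8 of 19 had an unadjusted p under 0.05, against 25.5% of all genes, and DESeq2 called 0.

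EXLA1 and EXLA2, sister genes that are 84.2% identical over 822 aligned bases and are read from different chromosomes, had the largest differences under NAE 18:3. EXLA1 (AT3G45970) had 20.8, 36.8 and 11.5 CPM in NAE 18:2 cotyledons and 6.502, 6.25 and 6.36 CPM in NAE 18:3 cotyledons, against 45.5, 52.3 and 34.6 CPM in DMSO cotyledons. EXLA2 (AT4G38400) had 22.6, 29.0 and 16.9 CPM in NAE 18:2 cotyledons and 6.91, 7.08 and 7.78 CPM in NAE 18:3 cotyledons, against 45.6, 49.8 and 44.7 CPM in DMSO cotyledons. The NAE 18:3 libraries of both genes lay in a narrow band far below DMSO. EXLA1 fell 6.94-fold under NAE 18:3 (log2 fold change -2.79 ± 0.37, SE, adjusted p = 0.000501) and EXLA2 fell 6.45-fold (-2.69 ± 0.18, adjusted p = 1.70e-05). Under NAE 18:2 EXLA2 had -1.01 ± 0.16 with an adjusted p of 0.0110, just outside the threshold, and with the replicate number as a block, where NAE 18:2 and DMSO cotyledons paired, it was called lower (-1.02, adjusted p = 0.00835). EXLA1 under NAE 18:2 had -0.91 ± 0.33 (adjusted p = 0.130) with overlapping libraries.

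EXPA5 (AT3G29030) had 12.8, 22.4 and 14.7 CPM in NAE 18:2 cotyledons and 6.68, 7.56 and 10.0 CPM in NAE 18:3 cotyledons, against 38.2, 33.3 and 20.8 CPM in DMSO cotyledons. It fell 3.81-fold under NAE 18:3 (log2 fold change -1.93 ± 0.28, SE, adjusted p = 0.000878) and overlapped DMSO under NAE 18:2 (-0.86 ± 0.27, adjusted p = 0.0834). These 3 calls were kept in all 6 fits that left out 1 cotyledon library and in the 6 other alternatives. EXPA6, with EXPA4 one of the most abundant members in DMSO cotyledons, had 64.3, 80.1 and 72.9 CPM in NAE 18:2 cotyledons and 48.2, 63.6 and 60.2 CPM in NAE 18:3 cotyledons, against 92.2, 106 and 85.8 CPM in DMSO cotyledons. All its treated libraries lay below DMSO, and its NAE 18:3 value of -0.72 ± 0.13 (adjusted p = 0.00248) passed the p threshold and not the fold threshold. EXPA9 had 0.62 ± 0.12 under NAE 18:3 (adjusted p = 0.00402), also short of the fold threshold, and the remaining members not called under NAE 18:3 lay between -1.29 (EXPA11) and 1.04 (EXPA14).

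**Figure D3:**
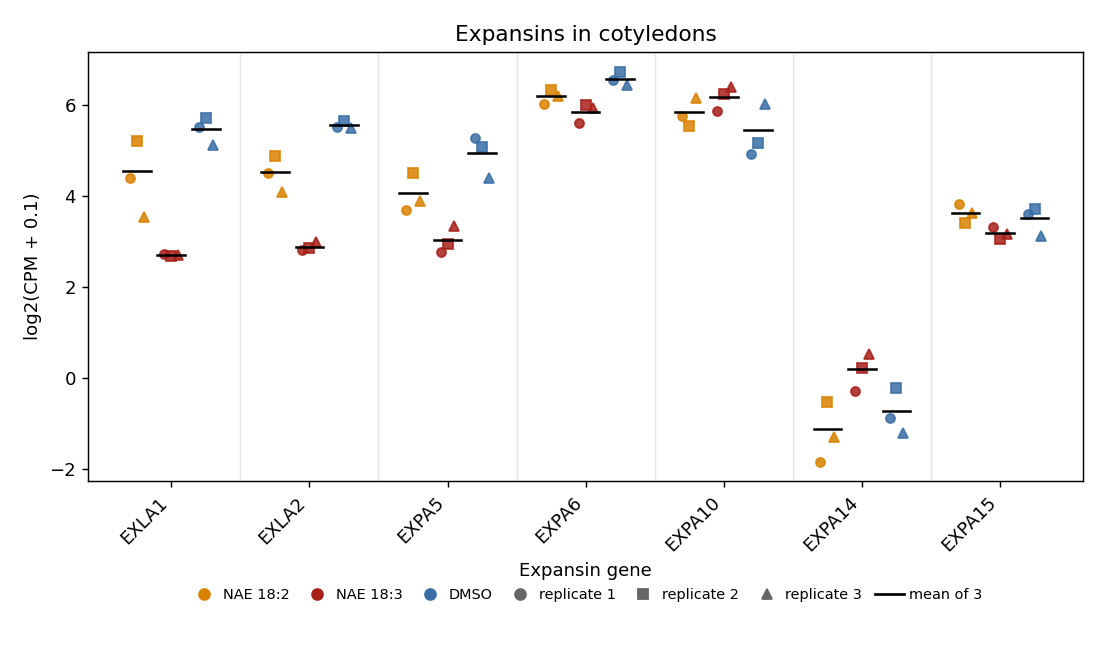
Expansins of cotyledons as log2 of CPM plus 0.1 in NAE 18:2, NAE 18:3 and DMSO cotyledons, with replicates as marker shapes and bars at the log2 of the mean CPM. EXLA1, EXLA2 and EXPA5 are lowest in the NAE 18:3 libraries with no overlap with DMSO, EXPA6 lies below DMSO in every treated library, and EXPA10, EXPA14 and EXPA15 overlap DMSO.

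Whether an NAE acted differently on a member in roots and in cotyledons was tested as the difference of its log2 fold changes, roots minus cotyledons. For NAE 18:3 the difference was called in 5 of 24 members, 2 positive and 3 negative (8.33% and 12.5%, against 5.56% and 9.86% of all genes), shares not far from those of all genes. EXLA2 differed by 3.91 ± 0.63 (SE, adjusted p = 7.28e-05), having fallen in cotyledons while its root libraries lay above DMSO. EXPA14 differed by -4.84 ± 0.89 (adjusted p = 0.000241). In cotyledons EXPA14 had 0.717, 1.07 and 1.33 CPM under NAE 18:3, against 0.442, 0.752 and 0.331 CPM in DMSO cotyledons, beside its fall in roots. EXPA15 differed by -2.65 ± 0.39 (adjusted p = 2.64e-05), with 9.82, 8.19 and 8.86 CPM in NAE 18:3 cotyledons, against 12.02, 13.0 and 8.61 CPM in DMSO cotyledons. These 3 differences were kept in all 12 fits that left out 1 library.

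EXPA6 differed by 1.31 ± 0.32 (SE, adjusted p = 0.00306) and EXPA10 by -2.71 ± 0.71 (adjusted p = 0.00498). EXPA6 had 6.86, 6.59 and 9.94 CPM in NAE 18:3 roots, against 4.38, 6.31 and 4.48 CPM in DMSO roots, and its difference was lost without NAE 18:3 cotyledon replicate 1 or NAE 18:3 root replicate 3 (adjusted p = 0.0102 in each) and under upper quartile scaling. EXPA10 had 0.261, 0.306 and 0.544 CPM in NAE 18:3 roots, against 1.58, 2.05 and 0.456 CPM in DMSO roots, and 58.0, 74.5 and 83.2 CPM in NAE 18:3 cotyledons, against 30.0, 35.4 and 64.6 CPM in DMSO cotyledons. Its groups overlapped in both organs, and its call was lost in 7 of the 12 fits that left out 1 library (adjusted p up to 0.0212). In cotyledons the root markers summed to 17.3 to 22.9 CPM under NAE 18:3, against 2.01 to 4.18 CPM in DMSO cotyledons, most of it WOX5 (15.6, 19.5 and 22.0 CPM under NAE 18:3), while COBL9 was at 0 and the 5 root hair markers summed to 0.119 to 0.314 CPM. The part of that signal in the cotyledon values of EXPA14 was not tested.

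For EXPA7, EXPA17 and EXPA18 the difference between organs was not called (adjusted p = 0.124, 0.487 and 0.0389), and with cotyledon libraries at or near 0 the fitted value depends on the prior count, so it is not given. DESeq2 called 6 members negative for NAE 18:3, EXPA7, EXPA8 and EXPA18 being the further ones (12.3% of all genes). For NAE 18:2 no member was called (1.92% of all genes were positive and 1.01% negative), 3 of 24 had an unadjusted p under 0.05, against 29.3% of all genes, and DESeq2 called EXPA15 negative (2.30% of all genes, log2 difference -1.29 ± 0.38, SE, adjusted p = 0.0285 with edgeR).

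**Figure D4:**
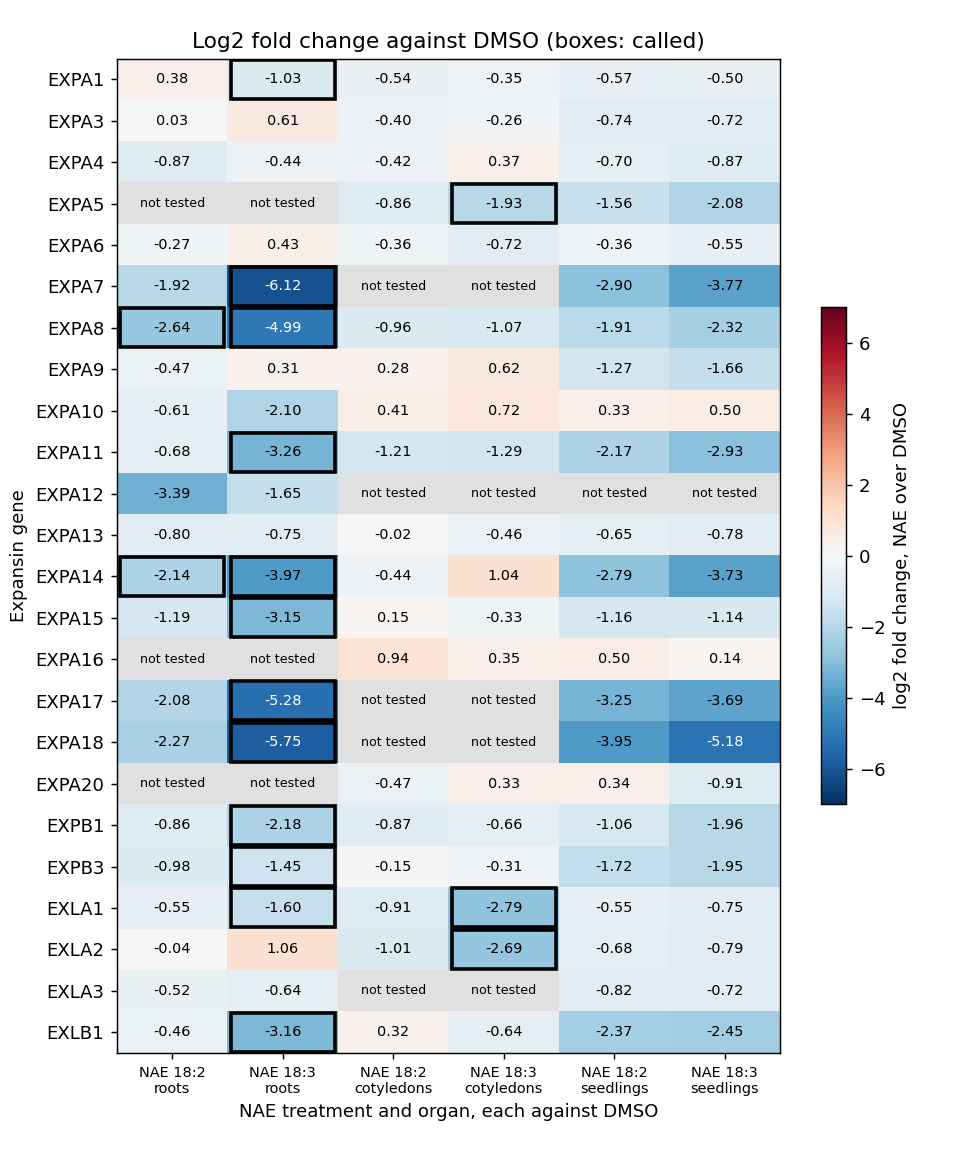
Log2 fold changes of the 24 tested expansins against DMSO of the same organ, for both NAEs in cotyledons, roots and whole seedlings, with black boxes around the called values and the words "not tested" where a member did not enter the fit. The boxes lie in NAE 18:3 roots (12), NAE 18:3 cotyledons (3) and NAE 18:2 roots (2), and none lies in whole seedlings.

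In whole seedlings no expansin was called under either NAE (0.206% of all genes were called lower and 0.674% higher under NAE 18:2, 0.631% lower and 1.28% higher under NAE 18:3). At an unadjusted p under 0.05 there were 12 of 23 members under NAE 18:2, against 30.9% of all genes, and 15 of 23 under NAE 18:3, against 41.0%. DESeq2 called 4 members lower under NAE 18:2 (467 of 22199 genes) and 7 under NAE 18:3 (4.45%). All 3 treated libraries lay below all 3 DMSO libraries in 16 of 23 members under NAE 18:2, against 21.4% of all genes, and in 17 of 23 under NAE 18:3, against 23.0%. The median log2 fold change of the members tested was -1.06 under NAE 18:2 and -1.14 under NAE 18:3, with -0.03 over all genes in each.

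The absence of calls went with a wide spread within the treated groups. NAE 18:2 replicate 2 and NAE 18:3 replicate 1 had more transcript of most root members than the other libraries of their groups, EXPA14 in NAE 18:3 seedlings being an exception. EXPA17 had 0.0370, 5.45 and 0.176 CPM in NAE 18:2 seedlings and 4.28, 0 and 0.0339 CPM in NAE 18:3 seedlings, against 18.8, 21.6 and 15.2 CPM in DMSO seedlings. EXPA7 had 0.0740, 4.21 and 0.132 CPM in NAE 18:2 seedlings and 2.22, 0.135 and 0.136 CPM in NAE 18:3 seedlings, against 15.2, 10.15 and 8.57 CPM in DMSO seedlings. Both genes, named here because they were called in roots, were below DMSO in every treated library, with SEs of 1.39 to 1.74 on the log2 scale. EXPA18 had 0.111, 1.57 and 0.0440 CPM in NAE 18:2 seedlings and 0.562, 0.168 and 0.0339 CPM in NAE 18:3 seedlings, against 12.6, 9.04 and 6.73 CPM in DMSO seedlings. Its log2 fold changes were -3.95 ± 1.09 (SE, adjusted p = 0.0602) under NAE 18:2 and -5.18 ± 1.19 (adjusted p = 0.0235) under NAE 18:3. EXPA14 had 0.518, 4.27 and 0.572 CPM in NAE 18:2 seedlings and 0.999, 0.841 and 1.02 CPM in NAE 18:3 seedlings, against 14.9, 10.9 and 11.98 CPM in DMSO seedlings, with -3.73 ± 0.77 under NAE 18:3 (adjusted p = 0.0184).

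Of the 3 members most abundant per kb in DMSO seedlings, EXPA4 and EXPA1 varied less between treatments than EXPA9. EXPA4 had 75.1, 117 and 75.7 CPM in NAE 18:2 seedlings and 80.5, 79.8 and 79.0 CPM in NAE 18:3 seedlings, against 137, 164 and 133 CPM in DMSO seedlings (log2 fold change -0.70 ± 0.18 under NAE 18:2, SE, adjusted p = 0.0514, and -0.87 ± 0.18 under NAE 18:3, adjusted p = 0.0187). EXPA1 had 42.2, 73.9 and 43.1 CPM in NAE 18:2 seedlings and 62.5, 52.9 and 52.3 CPM in NAE 18:3 seedlings, against 83.4, 71.7 and 80.0 CPM in DMSO seedlings. EXPA9 had 11.4, 44.7 and 9.95 CPM in NAE 18:2 seedlings and 27.9, 9.28 and 13.6 CPM in NAE 18:3 seedlings, against 59.4, 49.0 and 50.4 CPM in DMSO seedlings. EXPA9, the root-abundant member, shows the same pair of libraries apart from their groups. The summed CPM of the family was 404 ± 128 in NAE 18:2 seedlings, 382 ± 44.6 in NAE 18:3 seedlings and 684 ± 34.3 in DMSO seedlings (SD, n = 3 each).

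NAE 18:2 replicates 1 and 3 differed by little more than counting noise (chi-square per degree of freedom 1.87, against 9.89 or more for other replicate pairs), and with their counts summed as 1 library no member was called. By that measure NAE 18:2 replicate 2 and NAE 18:3 replicate 1 were closer to each other (19.7) than to their own groups (130 and 123, and 232 and 98.0). NAE 18:3 replicate 3 was closest to NAE 18:2 replicates 1 and 3 (17.9 and 18.0). The reason was not tested. Without NAE 18:2 replicate 2, 5 members were called lower under NAE 18:2 (EXPA3, EXPA11, EXPA14, EXPA15 and EXPA18, with 1.77% of all genes), a count that rests on that close pair alone as the treated group. Without NAE 18:3 replicate 1, 3 were called lower under NAE 18:3 (EXLA1, EXPA5 and EXPB3, with 2.51% of all genes). With both libraries left out, 14 members were called lower under each NAE, beside 8.99% of all genes under NAE 18:2 and 11.4% under NAE 18:3. The libraries left out lay nearest DMSO for most of the root members, so more calls without them follow from that choice and support none of these members. The root hair markers summed to 0.740, 9.29 and 0.616 CPM in NAE 18:2 seedlings and 3.40, 0.942 and 0.373 CPM in NAE 18:3 seedlings, against 141, 49.1 and 52.0 CPM in DMSO seedlings. The 8 root markers summed to 21.1, 91.3 and 18.4 CPM (NAE 18:2) and 63.6, 24.2 and 18.8 CPM (NAE 18:3), against 165, 141 and 103 CPM in DMSO seedlings. The green shoot markers ran from 36079.9 to 64406.5 CPM (NAE 18:2) and from 41919.5 to 60921.3 CPM (NAE 18:3), against 38422.6 to 46273.9 CPM in DMSO seedlings. The share of a whole-seedling library that comes from roots was estimated from 2921 organ genes. Matched to the organs of the same treatment it was 11.9% to 29.2% in NAE 18:2 seedlings, 24.1% to 49.3% in NAE 18:3 seedlings and 28.0% to 35.4% in DMSO seedlings. With this share as a covariate 0 members were called under NAE 18:2 and 14 lower under NAE 18:3 (9.30% of all genes). They were the same 14 as under NAE 18:3 with both libraries left out. The matched share was highest in NAE 18:3 replicate 1, which was among the libraries left out, so the 14 calls add no support for these members. Estimated from the DMSO organs the share was 17.6% to 32.4% in NAE 18:2 seedlings and 16.6% to 25.2% in NAE 18:3 seedlings, and with it as a covariate no member was called under either NAE.

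**Figure D5:**
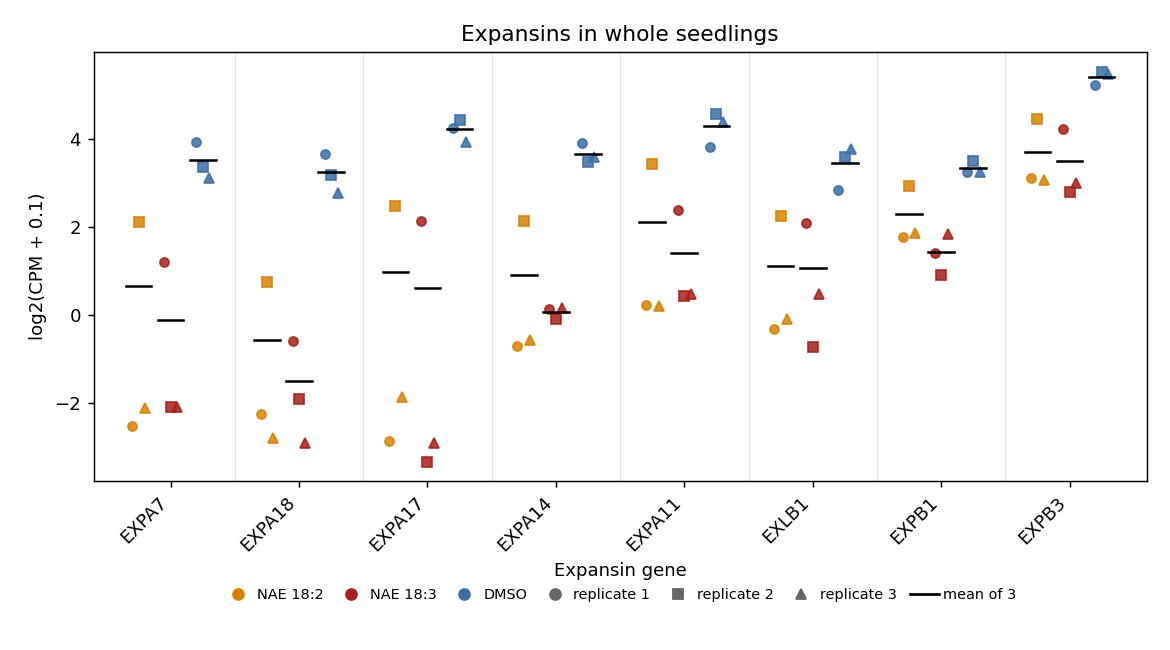
Expansins in whole seedlings as log2 of CPM plus 0.1 in NAE 18:2, NAE 18:3 and DMSO seedlings, with replicates as marker shapes and bars at the log2 of the mean CPM. NAE 18:2 replicate 2 lies above the other libraries of its group in every gene shown and NAE 18:3 replicate 1 above its group in EXPA7, EXPA18, EXPA17, EXPA11, EXLB1 and EXPB3, while all treated libraries lie below DMSO.

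The genes that act beside expansins in wall acidification and root hair growth were counted in the same fits. Of the 11 plasma membrane proton pumps, 9 were tested in roots. Under NAE 18:3 4 were called lower and 2 higher, against 16.8% of all genes called lower and 5.94% called higher. AHA2, the main pump of root cells, had 760, 909 and 767 CPM in NAE 18:2 roots and 228, 251 and 243 CPM in NAE 18:3 roots, against 1594, 1058 and 1196 CPM in DMSO roots, and fell 6.07-fold under NAE 18:3 (adjusted p = 1.30e-05). AHA3 fell 6.46-fold and AHA7 5.06-fold. The other pumps called were AHA4, AHA10 and AHA11, and the 2 called higher are among them. Under NAE 18:2 no pump was called in roots, none of 10 was called in cotyledons under either NAE, and in seedlings AHA7 alone was called, lower under NAE 18:3 (-2.30 ± 0.34, SE, adjusted p = 0.00789). Of the 6 genes of the SAUR19 group, whose proteins raise pump activity in growing shoots, 4 were tested in cotyledons and 6 in seedlings, and 0 were called under either NAE. In DMSO roots 6 of 6 were lower than in DMSO cotyledons, against 22.4% of all genes.

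Of 9 root hair bHLH regulators, the family of RHD6 and RSL4 that drives hair growth, 8 were tested in roots. Under NAE 18:3 7 were called lower (16.8% of all genes), among them RSL1 (log2 fold change -4.85), RSL2 and AT5G43175. Under NAE 18:2 AT5G43175 alone was called, lower (3.03% of all genes). AT5G43175 had 0.0695, 0.0378 and 0 CPM in NAE 18:2 roots and 0, 0 and 0.0494 CPM in NAE 18:3 roots, against 0.634, 0.453 and 0.456 CPM in DMSO roots, so its treated libraries were at the floor of 3 counts or fewer and no fold is given. RSL2 had 1.18, 6.89 and 1.84 CPM in NAE 18:2 roots and 0.149, 0 and 0 CPM in NAE 18:3 roots, against 3.11, 1.09 and 1.75 CPM in DMSO roots, and since its NAE 18:3 libraries held 4, 0 and 0 counts no fold is given. Its NAE 18:2 replicate 2 was the highest of the 9 libraries, as that library was the highest of its group for EXPA7 and EXPA18. No regulator was called in cotyledons (2 tested) or in seedlings (7 tested).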

How the data were processed

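Poly(A) RNA libraries from 3 organs and 3 treatments (9 groups of 3, 27 libraries) were sequenced, and the authors aligned reads with STAR to TAIR10. The counting program, annotation and use of strand are not given in the sources used here. The authors deposited a table of raw counts per gene, which was used, and a table of the same counts divided by size factors, which was not used. The paper's tool DESeq2 served as an alternative. All 27 count columns were matched to samples by name, and 0 columns were left unmatched.

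Counts were tested with edgeR 4.0.16 (R 4.3.3): TMM scaling, filterByExpr, robust quasi-likelihood fits of the 9 libraries of an organ with treatment as the only term, Benjamini-Hochberg adjustment, and calls where the adjusted p was under 0.01 and the log2 fold change beyond 1 in size. Organ contrasts and differences of effects between organs used 1 fit of all 27 libraries and 9 groups. SEs are the log2 fold change divided by the square root of F. A group was taken as at the floor where no library passed 3 counts, and at 3 libraries per group precision is limited by their number. Scripts were tested on simulated counts.

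The members and lists were chosen with earlier results of these data known. Genes called in an organ, the 3 most abundant members per kb in each DMSO organ and members with a called difference between organs are named with their values, as are at most 3 called genes of each other list. Members named outside this rule were chosen after their values were seen. Alternatives were DESeq2 1.42.0, RLE and upper quartile scaling, no filter, only the 6 libraries compared, a replicate block, each library left out, and, for seedlings, close libraries summed or left out and root share covariates (the one from DMSO organs was chosen after seeing the data).

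Replicate numbers were checked for pairing from deviations of log2(CPM + 0.5). NAE 18:2 and DMSO cotyledons correlated by number (0.443, 0.159 and 0.319), and no other NAE group correlated with its DMSO group above 0.1 for every number. Gene models, transcripts compared with BLAST+ 2.17.0+ and upstream sequences came from RefSeq TAIR10.1, all 34 members matching by gene identifier. The NAEs were not contrasted with each other because their doses differ.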

Additional observations from a re-analysis of the deposited data

Results flagged for a closer look

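NAE 18:3 effects on 5 expansins differed between roots and cotyledons by edgeR's quasi-likelihood test of the difference of log2 fold changes (roots minus cotyledons). They were 8.33% positive and 12.5% negative of the members tested, against 5.56% and 9.86% of all genes, so the count is not far from that of all genes. The difference was 3.91 for EXLA2 (adjusted p = 7.28e-05) and 1.31 for EXPA6 (adjusted p = 0.00306). It was -4.84 for EXPA14 (adjusted p = 0.000241), -2.65 for EXPA15 (adjusted p = 2.64e-05) and -2.71 for EXPA10 (adjusted p = 0.00498). The differences of EXLA2, EXPA14 and EXPA15 were kept in all 12 fits that left out 1 library, that of EXPA6 was lost in 2 and that of EXPA10 in 7.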

How the results depend on the processing

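No result changed its direction. Counts of members called moved by over 1.5 times as follows, with smaller moves given where a call was lost. Under DESeq2, 7 in place of 2 were lower in NAE 18:2 roots, 1 in place of 0 higher in NAE 18:3 roots, 4 in place of 0 lower in NAE 18:2 seedlings, 7 in place of 0 in NAE 18:3 seedlings, 1 in place of 0 had a negative organ difference for NAE 18:2, and 6 in place of 3 for NAE 18:3. Under upper quartile scaling, 4 were lower in NAE 18:2 roots (827 of all genes, in place of 610). With that scaling 1 in place of 2 had a positive organ difference for NAE 18:3 (EXPA6 lost, 769 of all genes in place of 1203). In DMSO roots 6 in place of 7 were lower than in DMSO cotyledons under it (EXLA1 lost, 4199 of all genes in place of 4839). With no filter, 1 was lower in NAE 18:2 roots (EXPA14 lost), 1 higher in NAE 18:3 roots and 10 in place of 12 lower there (EXPA1 and EXPB1 lost). With only the 6 libraries compared, 1 was higher and 11 in place of 12 lower in NAE 18:3 roots (EXPA1 lost), 4 in place of 3 lower in NAE 18:3 cotyledons and 1 lower in NAE 18:3 seedlings. With an adjusted p alone, 1 in place of 0 was higher and 4 in place of 3 lower in NAE 18:3 cotyledons, 3 in place of 2 lower in NAE 18:2 roots and 13 in place of 12 in NAE 18:3 roots. Without NAE 18:2 seedling replicate 2 and NAE 18:3 seedling replicate 1 together, 14 were lower under each NAE, with 8.99% of all genes under NAE 18:2 and 11.4% under NAE 18:3 (the libraries left out lay nearest DMSO for most root members, and the NAE 18:2 pair left is the close one). With the matched root share as a covariate the same 14 were lower in NAE 18:3 seedlings (9.30% of all genes).

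With the replicate block, 1 in place of 0 was lower in NAE 18:2 cotyledons (EXLA2), 0 in place of 2 in NAE 18:2 roots (EXPA8, adjusted p = 0.0117, and EXPA14, 0.0167) and 10 in place of 12 in NAE 18:3 roots (EXPB1, 0.0165, and EXLA1, 0.0112). Whether root or seedling libraries of the same number were handled together is not given in the sources used here. Their correlations with DMSO by number were low or negative, which cannot exclude it.

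Leaving out 1 library at a time, the counts lower ran from 0 to 1 in NAE 18:2 cotyledons, 3 to 3 in NAE 18:3 cotyledons, 0 to 6 in NAE 18:2 roots, 9 to 11 in NAE 18:3 roots, 0 to 5 in NAE 18:2 seedlings and 0 to 3 in NAE 18:3 seedlings. The counts higher ran from 0 to 1 in NAE 18:3 cotyledons and in NAE 18:3 roots. Organ differences for NAE 18:3 ran from 1 to 2 positive and 2 to 4 negative. The 6 in NAE 18:2 roots came without replicate 2, which lay nearest DMSO for those members, and add no support for them. For these fits in roots and cotyledons the share of all genes called was not counted. Nor was it for the fits with no filter, with only the libraries compared or with the replicate block.

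Upper quartile scaling shifted the median of all genes to -0.14 in NAE 18:2 roots, -0.14 in NAE 18:2 seedlings, -0.18 in NAE 18:3 seedlings, 0.30 between DMSO organs and -0.13 for the NAE 18:2 organ difference. The share of calls that were higher moved from 65.2% to 55.0% in NAE 18:2 roots and from 65.6% to 46.7% for the NAE 18:2 organ difference under upper quartile scaling, from 36.1% to between 24.5% and 25.9% for the NAE 18:3 organ difference under upper quartile, RLE and DESeq2, and from 85.1% to 74.8% in NAE 18:2 cotyledons under DESeq2. The cause of these shifts was not tested. The number of libraries and the low counts of EXPA2, EXPA8, EXPA12 and EXPA20 limit precision.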
